A study of Mus musculus with 16 samples.

Results

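The genes described here are 40 markers of macrophages and other myeloid cells, measured by RNA-seq in muscle stem cells (MuSCs) sorted from mouse skeletal muscle. They were selected by gene symbol, and all 40 were among the 24411 genes of the count table. By their known roles they were separated into 5 monocyte markers, 8 markers of resident macrophages, 10 markers of phagocytic macrophages and 17 pan-leukocyte or pan-myeloid genes. Many of these genes are used by more than one myeloid state, so the classes order the description and do not assign cells. The 16 libraries came from 4 groups of 4 replicates, defined by genotype label and injury. Mice labelled as TRF2 knockout (TRF2 MuSC-cKO) carried floxed Terf2, which encodes the telomere protein TRF2, together with a tamoxifen-inducible Cre expressed from Pax7. Deletion was thus directed at MuSCs and not at myeloid cells. Mice labelled wild type served as control. In each genotype MuSCs were isolated from uninjured muscle or 3 days post-injury (3 DPI), after injection of 10 µl notexin, a snake venom toxin that kills muscle fibres, into the tibialis anterior. Cells bearing CD45, CD31, CD11b or Sca1 were removed, and cells positive for α7-integrin and for VCAM (or CD34) were collected. Tamoxifen was in general started in young adult mice, and cohorts were matched by sex. The sex and exact age of the mice behind each library, the alleles and tamoxifen treatment of the controls, and whether each library came from a separate mouse are not given in the sources used here, and p-values cover only the spread between these libraries.

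Monocytes enter damaged muscle from the blood through chemokine receptors such as CCR2, and they mature there into macrophages that clear dead fibres. Resident macrophages live in the connective tissue around the fibres and carry scavenger and complement genes such as Mrc1, Cd163 and C1qa. Phagocytic macrophages raise lysosomal, Fc-receptor and lipid-handling genes such as Cd68, Fcgr3, Trem2 and Gpnmb, and secrete factors such as osteopontin (Spp1) that act on neighbouring cells.

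PU.1, the product of Spi1, is the transcription factor that directs myeloid gene expression, and many myeloid promoters carry a purine-rich site for it. Promoter sequences of RefSeq on GRCm38.p6 were found for 32 of the 40 genes. The word GAGGAAG, a form of the PU.1 site, was searched on both strands within the 250 bases before each gene start, and no other motif was searched. It was present for 9 of the 32 genes (28.1%), namely Fcgr1, Fcgr3, Mrc1, Laptm5, C1qc, Spp1, Clec4d, Ly6c2 and Trem2, and for 12.0% of all 27025 genes with a promoter in the same table. Counted by promoter, it was present in 28.2% of the 39 myeloid entries and in 10.6% of all 32851. Windows for 4 genes are shown, at least 1 from each of the monocyte, resident and phagocytic classes. Each lies outside the body of its own gene as annotated on the same build, and overlap with other genes was not checked. Each has 80 bases, is read along the strand of its gene, and carries the word (or CTTCCTC, its reverse complement) in capitals.
Ly6c2, chr15:75112036-75112115, minus strand: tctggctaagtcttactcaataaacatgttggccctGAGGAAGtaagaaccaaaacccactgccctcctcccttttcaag
Mrc1, chr2:14229210-14229289, plus strand: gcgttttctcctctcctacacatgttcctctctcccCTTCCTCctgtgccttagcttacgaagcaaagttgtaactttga
Spp1, chr5:104434962-104435041, plus strand: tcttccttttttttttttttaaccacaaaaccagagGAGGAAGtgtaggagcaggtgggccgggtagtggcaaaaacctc
Trem2, chr17:48346321-48346400, plus strand: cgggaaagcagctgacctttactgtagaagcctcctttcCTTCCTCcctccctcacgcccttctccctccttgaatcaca
The word lay 113 bases before the Spp1 start and 41 bases before the Trem2 start. A match describes letters only and was not tested for binding.

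Libraries held 620506 to 1351130 estimated counts. The library labelled TRF2 MuSC-cKO 3 DPI replicate 3 stood apart, with 15389 genes detected against 19996 to 21881 in the other 15, and the main results that include it are also given without it. Terf2 itself was measured at 70.4, 93.0, 64.7 and 72.4 CPM (counts scaled to library size) in uninjured control libraries and at 48.2, 45.6, 57.3 and 26.6 CPM in uninjured TRF2 MuSC-cKO libraries, which did not overlap (log2 fold change -0.62 ± 0.27, standard error; edgeR adjusted p = 0.199). At 3 DPI it was at 34.5, 47.4, 47.4 and 41.9 CPM in control and at 51.2, 21.2, 64.2 and 87.1 CPM in libraries labelled TRF2 MuSC-cKO, where it was not lower (0.44 ± 0.42, adjusted p = 0.755). Every 3 DPI comparison of genotype therefore refers to the labels.

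In uninjured muscle, the myeloid markers held few counts and were compared with a background set by genes of smell receptors. The 40 genes together held 0.0407 to 0.0584% of the counts of a control library and 0.0537 to 0.0701% of a TRF2 MuSC-cKO library. As a measure of background, the 1455 olfactory and vomeronasal receptor genes of the table averaged 3.62 to 7.34 TPM (a level scaled for transcript length as well as library size) in uninjured control libraries and 7.58 to 10.4 TPM in uninjured TRF2 MuSC-cKO libraries. Only Gpnmb, a lysosomal glycoprotein of phagocytes, and Adgre5, the adhesion receptor CD97, exceeded the 95th percentile of these receptor genes in every uninjured control library, and only Adgre5 did so in every uninjured TRF2 MuSC-cKO library. In single uninjured libraries 5 to 15 of the 40 genes exceeded this percentile, the most in control replicate 2. Against the mean of the receptor genes, 27 to 34 of the 40 genes were higher in each of the 8 uninjured libraries. Adgre5 averaged 118 ± 21.3 TPM (SD, n = 4) in uninjured control, the highest of the 40 genes there. Among markers that define macrophages, Csf1r was at 7.65 ± 4.02 TPM, Adgre1 at 9.11 ± 6.63 TPM, Lyz2 at 13.6 ± 8.56 TPM, Cd68 at 18.1 ± 8.55 TPM and Aif1 at 25.2 ± 13.4 TPM in uninjured control (SD, n = 4). Tyrobp, the signalling adaptor DAP12 of myeloid receptors, had 2 counts in all 4 uninjured control libraries together.

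The first comparison asked how these markers changed with injury in control mice. They rose almost without exception: 38 of the 39 genes tested were higher at 3 DPI and none was lower, against 10.8% of all 15356 genes tested called higher and 9.46% called lower. The median log2 fold change was 4.56 over the 39 genes and 0.066 over all genes. The gene not called was Adgre5 (0.33 ± 0.20, adjusted p = 0.248), and Ly6c2 was too low to be tested. Calls needed a fold above 1.5 and an adjusted p below 0.02 (edgeR's quasi-likelihood test, Benjamini-Hochberg over all genes tested). Of the 39, 18 passed the filter on low counts only through their 3 DPI libraries. Of the 21 that also passed it on the 8 uninjured libraries alone, 20 were called higher. These 21 were 2 monocyte, 5 resident, 4 phagocytic and 10 pan-leukocyte genes. In bulk libraries such as these, a change in the number of cells of a type cannot be told apart from a change in RNA per cell. The records' description field also gives each library a code. In both genotypes most uninjured libraries had a code that no 3 DPI library had. Injury and whatever the code stands for can therefore be told apart only in part.

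**Figure D1:**
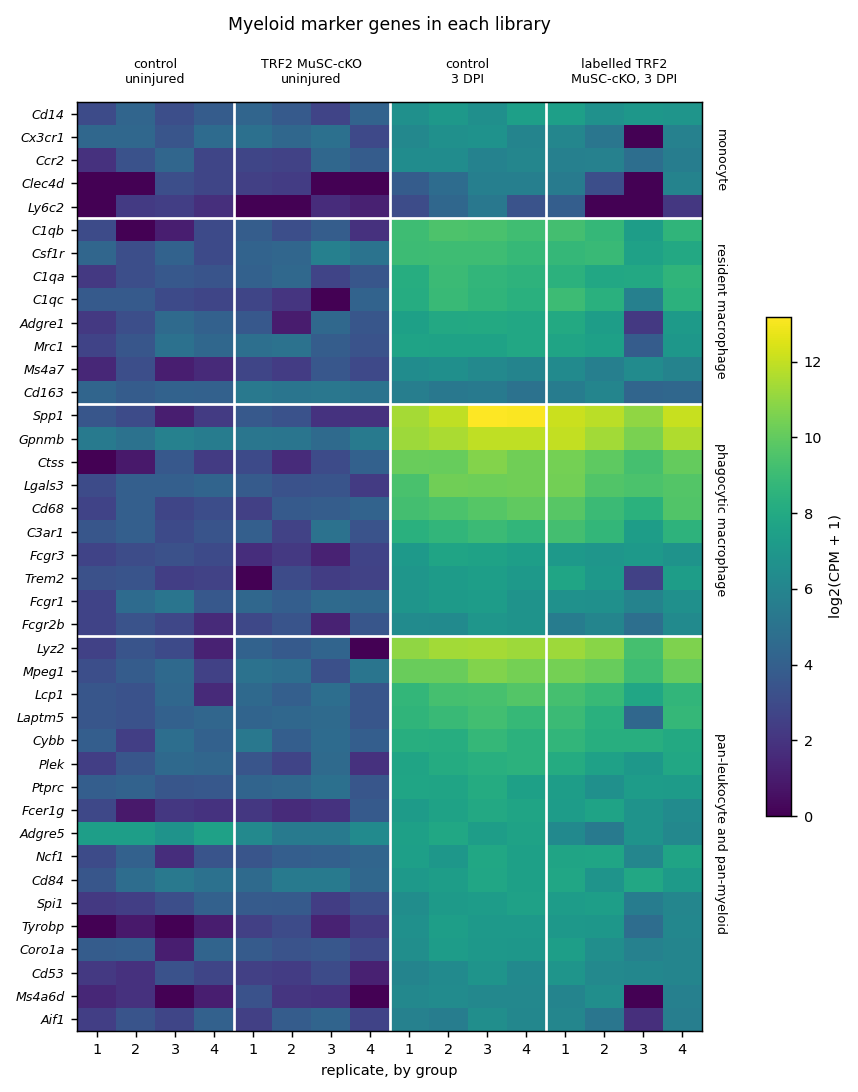
Expression of the 40 myeloid marker genes in each of the 16 libraries, as log2(CPM + 1), with genes in rows by class and replicates 1 to 4 of each group in columns. All classes are dark in the 8 uninjured libraries and brighter at 3 DPI, except Adgre5 and Cd163, and the library labelled TRF2 MuSC-cKO 3 DPI replicate 3 has 4 genes at 0.

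All 10 phagocytic macrophage markers were called higher in control, with a median of 5.81. Only 4 of these, Gpnmb, Lgals3, Cd68 and Fcgr1, passed the low-count filter on the uninjured libraries alone. The others passed it only through their 3 DPI libraries. Differences between the classes were not tested, and single genes of other classes, such as Lyz2 and C1qb, had larger estimates than most phagocytic markers. Spp1 was at 10.6, 7.09, 1.14 and 3.84 CPM in the uninjured control libraries and at 2702, 3903, 9329 and 8756 CPM at 3 DPI. Replicates 3 and 4, which share a description code, lay well above replicates 1 and 2, which share another. All 4 lay far above every uninjured library (log2 fold change 10.05 ± 0.73, adjusted p = 2.5e-05). Gpnmb rose from 42.3, 30.1, 54.5 and 45.1 CPM to 2434, 2906, 3848 and 3906 CPM (6.30 ± 0.25, adjusted p = 3.7e-23). The lowest 3 DPI library was far above the highest uninjured one. Lgals3, the glycan-binding galectin-3, rose from 7.04, 15.1, 14.8 and 18.2 CPM to 676, 1277, 1234 and 1287 CPM (6.39 ± 0.28, adjusted p = 4.8e-22), with replicate 1 the lowest in both states. Cd68, a lysosomal membrane protein used to stain macrophages, rose from 5.28, 15.1, 5.68 and 7.68 CPM to 599, 707, 828 and 990.1 CPM (6.55 ± 0.29, adjusted p = 4.8e-22).

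Other genes of engulfment moved with them. Ctss, the lysosomal protease cathepsin S, was at 0 to 11.4 CPM in uninjured control and at 1106 to 1682 CPM at 3 DPI (8.49 ± 0.44, adjusted p = 5.2e-12). Trem2, the lipid receptor that signals through DAP12, rose from 8.8, 9.75, 4.54 and 5.07 CPM to 119.9, 151, 169.6 and 140.3 CPM (4.38 ± 0.29, adjusted p = 4.8e-16), with no overlap. C3ar1, the receptor for the complement fragment C3a, rose from 6.81 to 15.1 CPM to 329.7 to 512 CPM (5.32 ± 0.26, adjusted p = 1.6e-20). The Fc receptors for antibody rose in a range of 2.91 for Fcgr1 to 4.69 for Fcgr3, with the inhibitory receptor Fcgr2b at 4.11. Fcgr3 was at 5.28, 7.39, 8.76 and 6.72 CPM in uninjured control and at 140.0, 207, 192 and 164 CPM at 3 DPI (4.69 ± 0.28, adjusted p = 1.7e-17).

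**Figure D2:**
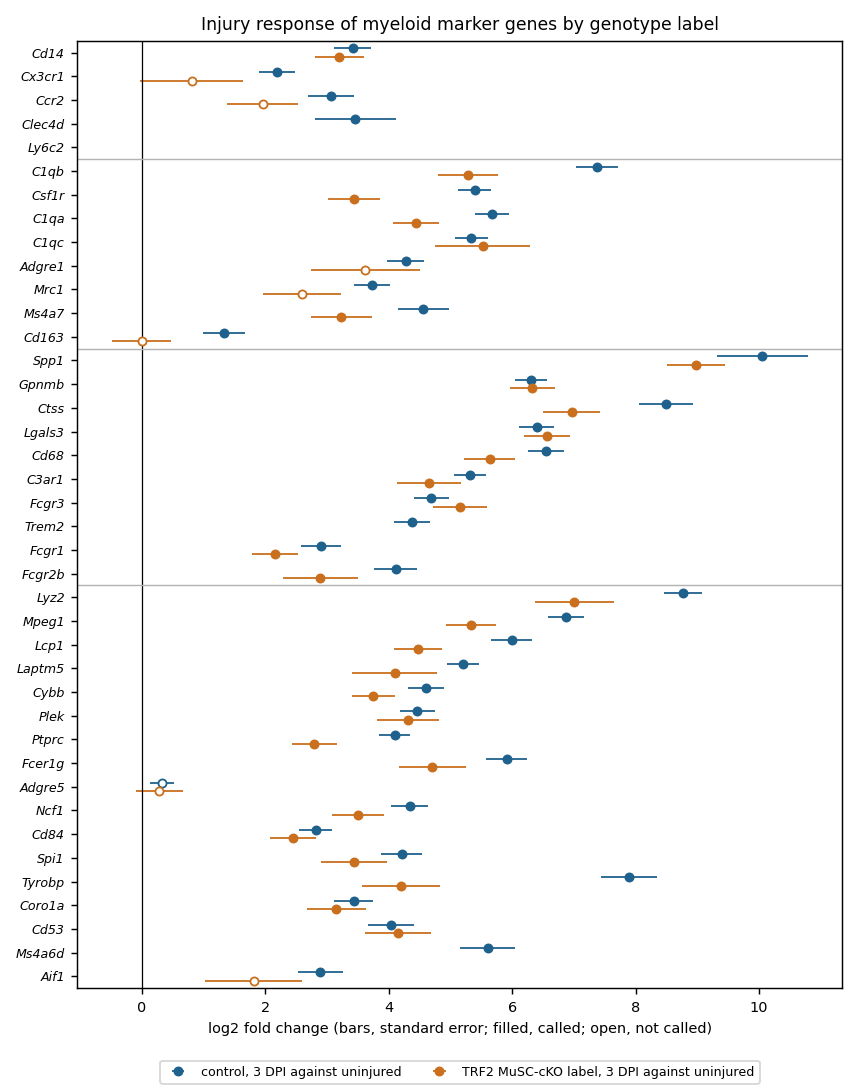
Log2 fold change of each marker from uninjured to 3 DPI with its standard error, in control (blue) and in libraries labelled TRF2 MuSC-cKO (orange), genes ordered by class as in the heat map. Filled points were called and open points were not. Spp1, Lyz2 and Ctss have the largest estimates in both genotypes, and Cd163, Adgre5 and Cx3cr1 are among the smallest.

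All 8 resident macrophage markers rose in control, with a median of 4.95, though over a wide range. C1qa, C1qb and C1qc encode the chains of complement C1q and lie side by side on chromosome 4 (GRCm38, chr4:136880129-136898803, minus strand). C1qb was at 7.04, 0, 1.14 and 6.72 CPM in uninjured control and at 538, 726, 682 and 572 CPM at 3 DPI (7.38 ± 0.34, adjusted p = 1.3e-19). C1qa (5.67 ± 0.28, adjusted p = 2.3e-20) and C1qc (5.34 ± 0.27, adjusted p = 4.8e-20) rose with it. At 3 DPI the levels per length were 1480 ± 183 TPM for C1qb, 909 ± 167 TPM for C1qa and 888 ± 184 TPM for C1qc (SD, n = 4). C1qb, at 1263 to 1696 TPM, lay above both others in range, and C1qa and C1qc did not differ beyond their spread.

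Csf1r, the receptor for the macrophage growth factor CSF1, rose from 19.4, 7.98, 17.0 and 6.72 CPM to 526, 553, 549 and 449 CPM (5.39 ± 0.27, adjusted p = 2.5e-20). Adgre1, which encodes the macrophage antigen F4/80, rose from 3.52, 7.98, 22.7 and 16.3 CPM to 177, 252, 252 and 237 CPM (4.28 ± 0.30, adjusted p = 4.7e-14). The mannose receptor gene Mrc1 rose from 5.28, 10.6, 29.5 and 20.2 CPM to 198, 191, 195 and 239 CPM (3.73 ± 0.29, adjusted p = 4.9e-13). In each of these genes every 3 DPI library was above every uninjured library. Cd163, the receptor that takes up haemoglobin bound to haptoglobin, rose least of the genes called: it was at 18.5, 13.3, 17.0 and 15.8 CPM in uninjured control and at 48.6, 38.4, 40.5 and 30.6 CPM at 3 DPI (1.33 ± 0.35, adjusted p = 0.00278). It was also the only one of the 40 genes that did not exceed the 95th percentile of the receptor background in every control 3 DPI library. Its call was lost on the length-scaled table (adjusted p = 0.0277) and in a fit of all 16 libraries (adjusted p = 0.035).

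Monocyte markers held the smallest share of counts of the 4 classes at 3 DPI, and this class also had the fewest genes. They summed to 270 to 358 CPM in control 3 DPI libraries, against 2160 to 2843 CPM for resident markers and 8347 to 18072 CPM for phagocytic markers. All 4 of the monocyte markers tested rose, with a median of 3.24. Ccr2, the receptor that draws monocytes from blood, rose from 2.64, 9.14, 19.3 and 5.76 CPM to 83.6, 84.4, 57.1 and 65.7 CPM (3.07 ± 0.37, adjusted p = 8.7e-09). The fractalkine receptor gene Cx3cr1 rose from 20.2, 20.4, 10.2 and 23.1 CPM to 70.1, 95.7, 104 and 60.5 CPM (2.20 ± 0.29, adjusted p = 5.9e-08). Cd14, the co-receptor for bacterial lipopolysaccharide, rose by 3.42 ± 0.30 and the lectin receptor gene Clec4d by 3.46 ± 0.66. Ly6c2, the antigen of inflammatory monocytes, was at 7.24, 20.2, 38.0 and 9.3 CPM in control 3 DPI libraries and at 0, 3.71, 4.54 and 2.42 CPM in uninjured control. The groups did not overlap, but the gene held 4.83 to 39.4 counts in a 3 DPI library and shares reads with a near-identical neighbour, so its level is uncertain.

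**Figure D3:**
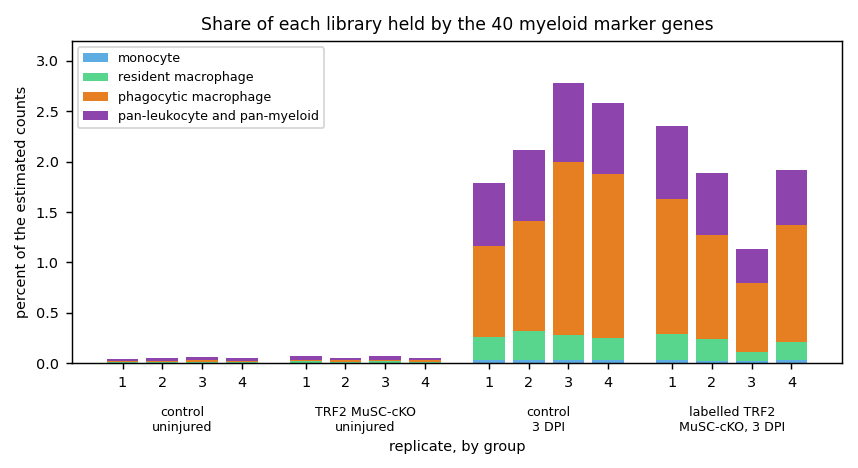
Percent of the estimated counts of each library held by the 40 myeloid marker genes, stacked by class, for replicates 1 to 4 of each group. The 8 uninjured libraries lie at 0.0407 to 0.0701%, control 3 DPI libraries at 1.79 to 2.79% and libraries labelled TRF2 MuSC-cKO 3 DPI at 1.13 to 2.35%, with phagocytic markers the largest class at 3 DPI and pan-leukocyte genes the largest in uninjured libraries. The classes differ in number of genes.

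Of the 17 pan-leukocyte genes, 16 rose in control, with a median of 4.46. Lyz2, the lysozyme of macrophages and neutrophils, rose from 4.89, 9.75, 6.81 and 1.41 CPM to 2068, 2634, 2707 and 2463 CPM (8.77 ± 0.31, adjusted p = 6.5e-25). Per length it was the second most abundant marker at 3 DPI, at 5822 TPM after Spp1 at 10321 ± 5117 TPM (SD, n = 4). Tyrobp had 562 counts at 3 DPI against the 2 in uninjured control, a ratio of 294 with a 95% interval of 81 to 2430 that covers counting error only. Mpeg1, the pore-forming protein perforin-2, rose from 4.8 to 21.6 CPM to 1143 to 1661 CPM (6.87 ± 0.30, adjusted p = 3e-21). Fcer1g, the signalling chain of Fc receptors, rose by 5.91 ± 0.33, and Laptm5, a lysosomal membrane protein of blood cells, by 5.20 ± 0.26. Spi1 rose from 3.52, 4.43, 7.95 and 16.3 CPM to 86.9, 144, 153 and 185 CPM (4.21 ± 0.33, adjusted p = 1.6e-13).

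The subunits of the phagocyte oxidase rose too, with Cybb at 4.61 ± 0.29 and Ncf1 at 4.34 ± 0.30. The actin-binding proteins of blood cells rose by 5.99 ± 0.34 for Lcp1 and 3.43 ± 0.32 for Coro1a. Ptprc encodes CD45, an antigen of the cells that sorting was meant to remove. It was at 14.1, 16.8, 10.4 and 11.5 CPM in uninjured control and at 217, 206, 279 and 182 CPM at 3 DPI (4.09 ± 0.25, adjusted p = 3.6e-17). Itgam, which encodes CD11b of the same gate and is not among the 40, was at 15.8, 7.98, 32.9 and 3.84 CPM in uninjured control and at 323.7, 369, 395 and 447.5 CPM at 3 DPI (4.75 ± 0.37, adjusted p = 9.4e-09). Both of these gate genes were thus higher in every 3 DPI library than in any uninjured library. Of the other gate genes in control, Ly6a (Sca1) was also higher (1.92 ± 0.42, adjusted p = 3.3e-04), and Pecam1 (CD31) was not called (0.34 ± 0.26, adjusted p = 0.408). Over the same comparison the 12 MuSC markers fell from a summed 5499.9 to 8865 CPM to 1205 to 1653 CPM, and 11 of the 12 were called lower. The part of sorted-cell composition in the marker results was not tested.

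The second comparison was the same injury contrast in libraries labelled TRF2 MuSC-cKO. Of the 36 genes tested, 29 were higher at 3 DPI and none was lower, against 2.43% of all 14578 genes called higher and 1.61% called lower. The median log2 fold change was 3.92 over the 36 genes and 0.007 over all genes. The phagocytic class rose throughout, with 9 of 9 genes tested called, while 5 of 8 resident, 1 of 3 monocyte and 14 of 16 pan-leukocyte genes were called. Among the 21 genes that passed the filter on uninjured libraries alone, 16 were called higher, and only 4 of the 21 were phagocytic. Without replicate 3 of the 3 DPI libraries, 35 of 38 genes were called, made up of 10 of 10 phagocytic, 7 of 8 resident, 2 of 3 monocyte and 16 of 17 pan-leukocyte genes, against 5.16% of all 15547 genes called higher in that fit. As in control, the gate genes Ptprc (2.79 ± 0.36, adjusted p = 2.5e-04) and Itgam (3.79 ± 0.35, adjusted p = 1.5e-05) were called higher, and 9 of the 12 MuSC markers were called lower.

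Spp1 was at 11.6, 9.12, 2.78 and 2.66 CPM in uninjured TRF2 MuSC-cKO and at 4447, 3663, 2073 and 4339 CPM at 3 DPI (8.97 ± 0.47, adjusted p = 3e-07). Lyz2 was at 16.9, 12.2, 17.8 and 0 CPM and then at 2444, 1856, 624 and 1609 CPM (7.01 ± 0.63, adjusted p = 1.4e-05). Replicate 3 was the lowest 3 DPI library in both genes, and every 3 DPI library was far above the uninjured ones. Gpnmb rose from 22.3 to 41.2 CPM to 1464 to 3997 CPM (6.33 ± 0.36, adjusted p = 3.4e-07), and Lgals3 rose from 3.99 to 12.6 CPM to 698 to 1312 CPM (6.57 ± 0.37, adjusted p = 3.4e-07). Ctss (6.97 ± 0.46), Cd68 (5.63 ± 0.42), C1qc (5.52 ± 0.77), Mpeg1 (5.33 ± 0.41) and C1qb (5.29 ± 0.49) were also called higher, though the call of C1qc was lost on the length-scaled table (adjusted p = 0.0367). Without replicate 3 all of these genes were called, with estimates such as 9.18 ± 0.345 for Spp1, 7.31 ± 0.44 for Lyz2 and 5.91 ± 0.46 for C1qc.

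Another 4 genes were not called by edgeR with all 8 libraries and were called by it without replicate 3. With replicate 3 kept, Mrc1 (adjusted p = 0.0012) and Ccr2 (adjusted p = 0.0106) were called in DESeq2, Adgre1 (adjusted p = 0.00339) in limma, and Adgre1 and Mrc1 in edgeR with scaling by library size alone (adjusted p = 0.0175 and 0.0167). Adgre1 was at 11.5, 1.01, 20.9 and 10.6 CPM in uninjured TRF2 MuSC-cKO and at 253, 160, 3.57 and 144 CPM at 3 DPI (3.62 ± 0.88, adjusted p = 0.0247). Replicate 3 fell within the uninjured range and the other replicates above it, and without replicate 3 the estimate was 4.08 ± 0.43 (adjusted p = 4.9e-08). Mrc1 was at 27.5, 30.4, 14.1 and 9.3 CPM and then at 207, 177, 13.1 and 126 CPM (2.59 ± 0.64, adjusted p = 0.0261), and without replicate 3 the estimate was 2.99 ± 0.34 (adjusted p = 8.1e-08). Ccr2 gave 1.96 ± 0.57 (adjusted p = 0.0646) with all libraries and 2.19 ± 0.49 (adjusted p = 0.00186) without replicate 3. Aif1, the macrophage calcium-binding protein IBA1, gave 1.81 ± 0.79 (adjusted p = 0.259) and 2.24 ± 0.50 (adjusted p = 0.00198).

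Cd163 was not called in either fit. It was at 39.0, 34.5, 36.2 and 32.1 CPM in uninjured TRF2 MuSC-cKO and at 45.1, 62.5, 19.0 and 20.0 CPM at 3 DPI, and the groups overlapped (-0.002 ± 0.48, adjusted p = 0.999; without replicate 3, 0.24 ± 0.40, adjusted p = 0.825). Cx3cr1 (0.81 ± 0.83, adjusted p = 0.728) and Adgre5 (0.28 ± 0.38, adjusted p = 0.807) were not called either. Trem2, which was not tested with all libraries, was at 0, 7.09, 4.17 and 4.99 CPM in uninjured TRF2 MuSC-cKO and at 214, 128, 4.76 and 161 CPM at 3 DPI, and without replicate 3 it was called (5.24 ± 0.44, adjusted p = 1.7e-10). Ly6c2, Clec4d and Ms4a6d were also not tested with all libraries.

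**Figure D4:**
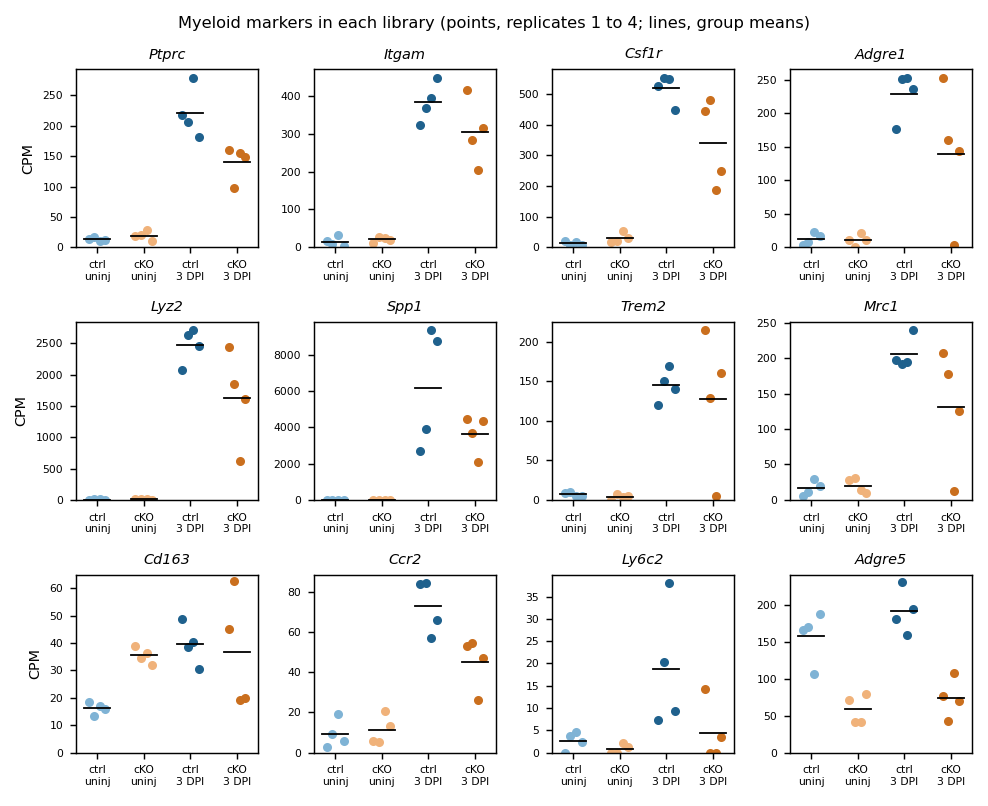
CPM of 11 myeloid markers and of the gate gene Itgam in each library (points, replicates 1 to 4 from left to right; lines, group means), with a separate linear axis from 0 for each gene. Replicate 3 labelled TRF2 MuSC-cKO 3 DPI is at 3.57 CPM for Adgre1, 4.76 CPM for Trem2 and 13.1 CPM for Mrc1, and Adgre5 is lower with the TRF2 MuSC-cKO label in both states.

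The third comparison set uninjured TRF2 MuSC-cKO against uninjured control. No description code was shared between the genotypes in uninjured muscle, so genotype and whatever the code stands for cannot be told apart here. Of the 21 genes with enough counts, only Adgre5 (GRCm38, chr8:83723251-83741326, minus strand) was called, against 3.22% of all 14048 genes tested. Adgre5 was at 166, 169, 107 and 187 CPM in control and at 71.7, 41.6, 41.6 and 79.7 CPM in TRF2 MuSC-cKO (-1.28 ± 0.24, adjusted p = 4.9e-04). All 4 control libraries were above all 4 TRF2 MuSC-cKO libraries. Cd163 went the other way, at 13.3 to 18.5 CPM in control and 32.1 to 39.0 CPM in TRF2 MuSC-cKO (1.28 ± 0.38, adjusted p = 0.0361), and these groups did not overlap either. Among all genes tested, 12.8% did not overlap between the groups. Cd163 was called in DESeq2 (adjusted p = 0.01) and limma (adjusted p = 0.0155). The call of Adgre5 was lost in limma (adjusted p = 0.0662) and on the length-scaled table (adjusted p = 0.0703), and held when any 1 library was left out.

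Csf1r was at 19.4, 7.98, 17.0 and 6.72 CPM in uninjured control and at 17.2, 19.3, 52.9 and 31.9 CPM in uninjured TRF2 MuSC-cKO (1.36 ± 0.46, adjusted p = 0.0765). The groups overlapped, as they did for Mpeg1 (1.18 ± 0.50, adjusted p = 0.18). Over the 21 genes 15 estimates were above 0, with a median of 0.47 against 0.058 over all genes. The median was 0.24 without control replicate 1, and 0.17 over the 4 genes with at least 10 counts in every library, 2 of them above 0. The receptor background averaged 7.58 to 10.4 TPM in TRF2 MuSC-cKO, above the 3.62 to 7.34 TPM of control, while in CPM the ranges of 2.85 to 3.47 and 1.68 to 3.05 overlapped, and its part in these estimates was not tested. The resident class summed to 68.2 to 107 CPM in control and to 121 to 155 CPM in TRF2 MuSC-cKO, while the phagocytic class overlapped at 100.4 to 148 CPM and 105 to 131 CPM. Within the resident class Cd163 (means of 16.2 and 35.4 CPM) and Csf1r (12.8 and 30.3 CPM) differed most. Adgre1 and C1qc had lower means in TRF2 MuSC-cKO. All 40 genes together overlapped, at 485 to 609 CPM and 530 to 621 CPM. In the same comparison the MuSC markers summed to 5499.9 to 8865 CPM in control and 3450.4 to 4833 CPM in TRF2 MuSC-cKO, and 8 of the 12 were called lower, as were all 3 genes of the antigens collected in the sort (Vcam1, Cd34 and Itga7). Markers of fibroadipogenic cells summed to 4633 to 7350.0 CPM and 1217 to 2557 CPM, with 2 of the 6 tested called lower and 1 higher. The part of these shifts in the resident class and in Adgre5 was not tested.

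The fourth comparison set the genotype labels against each other at 3 DPI. None of the 39 genes tested was called by edgeR, and neither was any of the 14559 genes tested, which is 0% of them. At an unadjusted p below 0.05 there were 3 of the 39, namely Adgre5, Ptprc and Fcgr2b, and 1362 of all genes. limma called none of the 39, and DESeq2 called Adgre5. The estimates leaned towards lower levels with the TRF2 MuSC-cKO label: 35 of 39 were below 0, with a median of -0.41 against 0.001 over all genes. Estimates or sums for markers of other cells also differed in the same comparison, though edgeR called none of these genes. The 12 MuSC markers all had estimates below 0, and their sums of 1205 to 1653 CPM in control and 674 to 954 CPM with the TRF2 MuSC-cKO label did not overlap. Mural and Schwann cell markers summed to 473 to 730 CPM and 742 to 799.8 CPM, and 5 of 6 neutrophil genes had estimates above 0. The part of these differences in the myeloid estimates was not tested. Leaving out 1 library moved the myeloid median between -0.58, without replicate 1 of the TRF2 MuSC-cKO label (39 of 39 below 0), and -0.24, without its replicate 3 (31 of 40 below 0). At 3 DPI replicates 1 and 2 of both genotypes share a description code. Within it the median was 0.04, with 22 estimates above 0 and 18 below, in a comparison of 2 against 2 libraries.

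Adgre5 kept its direction in all of these. It was at 180, 231, 159 and 195 CPM in control and at 76.3, 42.4, 107 and 70.1 CPM in libraries labelled TRF2 MuSC-cKO (-1.31 ± 0.30, adjusted p = 0.452), with no overlap. Without replicate 3 it was called (-1.58 ± 0.26, adjusted p = 0.00457), and within the shared code the estimate was -1.78. Unlike the other members tested, Adgre5 was not called higher with injury in control (0.33 ± 0.20, edgeR adjusted p = 0.248). It also had the highest level of the 40 genes in uninjured control, at 118 TPM. Which cells its reads came from was not tested. Ptprc was at 217, 206, 279 and 182 CPM in control and at 159, 97.1, 155 and 148 CPM with the TRF2 MuSC-cKO label (-0.60 ± 0.24, adjusted p = 0.514). Fcgr2b was at 81.8, 78.6, 120.5 and 107 CPM and at 45.5, 63.2, 26.7 and 78.2 CPM (-0.81 ± 0.35, adjusted p = 0.52), where the closest libraries of the groups nearly met. Together with Fcgr1 and Ccr2, these were the 5 members whose groups did not overlap, all lower, while 7.84% of all genes tested did not overlap in either direction.

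**Figure D5:**
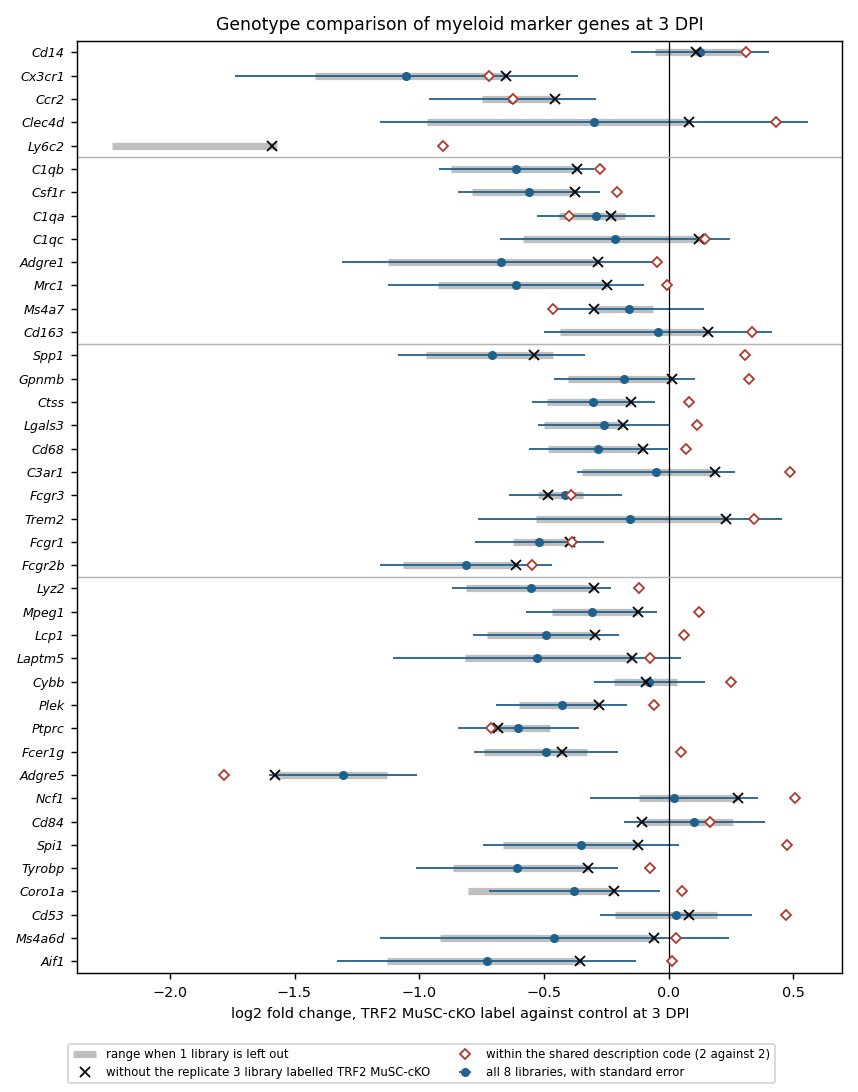
Log2 fold change of each marker between the TRF2 MuSC-cKO label and control at 3 DPI (blue, all 8 libraries with standard error), with the range over leaving out each library in turn (grey), the value without replicate 3 of the TRF2 MuSC-cKO label (cross) and the value within the shared description code (diamond). Most blue points lie between -1 and 0, many diamonds lie above 0, and Adgre5 lies at -1.31 with all 8 libraries; Ly6c2 has no blue point because it was not tested.

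The most abundant markers overlapped between the labels at 3 DPI. Spp1 was at 2702 to 9329 CPM in control and 2073 to 4447 CPM with the TRF2 MuSC-cKO label (-0.71 ± 0.37, adjusted p = 0.573), and its estimate turned to 0.31 within the shared code. Gpnmb (-0.18 ± 0.28), Lgals3 (-0.26 ± 0.26), Cd68 (-0.28 ± 0.28) and Trem2 (-0.16 ± 0.61) likewise had estimates below 0 with all libraries and above 0 within the shared code. Lyz2 was at 2068 to 2707 CPM and 624 to 2444 CPM (-0.55 ± 0.32, adjusted p = 0.612), and Csf1r at 449 to 553 CPM and 186 to 482 CPM (-0.56 ± 0.28, adjusted p = 0.556). The phagocytic class made up 50.1 to 63.1% of the CPM of the 40 genes in control and 55.0 to 60.6% with the TRF2 MuSC-cKO label, and the resident class 8.44 to 13.4% and 8.31 to 11.4%. Spp1 and Gpnmb alone averaged 6172 and 3273 CPM of a phagocytic mean of 13617 CPM in control. The classes differ in number of genes and CPM is not scaled for length, so these shares depend on the lists. In every 3 DPI control library 39 genes exceeded the 95th percentile of the receptor background, while 25 did so in every library with the TRF2 MuSC-cKO label, where replicate 3 raised that percentile to 77.3 TPM, and 34 did so in each of the other 3 libraries. In simulated data with the real depths, this comparison recovered 55.3% of genes changed by a log2 fold of 2 and 2.2% of those changed by 1.

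The fifth comparison tested whether the injury change itself differed between the genotype labels. None of the 39 genes was called, against 3 of 16822 genes (0.0178%), and neither DESeq2 nor limma called any of the 39. Of the 39 estimates 31 were below 0, a smaller rise under the TRF2 MuSC-cKO label, with a median of -0.95 against 0.035 over all genes. Of the 40 genes, 19 had too few counts to be tested in uninjured libraries, and over the 4 genes with at least 10 counts in every library the median was -0.18 against 0.094. Below 0 were 7 of 8 resident, 15 of 17 pan-leukocyte, 3 of 4 monocyte and 6 of 10 phagocytic genes. At an unadjusted p below 0.05 there were 966 of all 16822 genes and 9 of the 39, namely Tyrobp, Csf1r, C1qb, Mpeg1, Ptprc, Lcp1, C1qa, Cd163 and Lyz2, all with a smaller rise under the TRF2 MuSC-cKO label. Tyrobp had the largest difference (-3.56 ± 0.97, adjusted p = 0.416), from a gene with 2 counts in uninjured control and 15 in uninjured TRF2 MuSC-cKO. C1qb was at -1.97 ± 0.73 (adjusted p = 0.73) and Csf1r at -1.83 ± 0.51 (adjusted p = 0.426). The phagocytic estimates ran from Ctss (-1.39 ± 0.77) to Fcgr3 (0.58 ± 0.50). Without replicate 3 of the TRF2 MuSC-cKO 3 DPI libraries the median over 40 genes was -0.71, with 32 below 0, 10 at an unadjusted p below 0.05 and none called, against 1328 and 13 of all 17610 genes.

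Most other myeloid genes also rose after injury in control, with a median of 2.89 (log2), against 2.21 with the TRF2 MuSC-cKO label. Of 57 tested from a further list of 63 myeloid genes, 52 were higher after injury in control and 1 was lower, against 10.8% of all genes called higher. With the TRF2 MuSC-cKO label 26 of 54 were higher, against 2.43%, and without its 3 DPI replicate 3 this was 43 of 55, against 5.16%. Of those tested, 22 in control and 19 with the TRF2 MuSC-cKO label passed the filter on low counts only through their 3 DPI libraries. Of the 35 that also passed it on the uninjured libraries alone, 32 were higher and 1 was lower in control, and 20 were higher with the TRF2 MuSC-cKO label. Those of smallest p in control were Nckap1l, a regulator of actin in blood cells (4.81 ± 0.25, adjusted p = 1.2e-19), the phagocytosis checkpoint receptor Sirpa (3.39 ± 0.22, adjusted p = 1.2e-16) and the lipid scavenger Cd36 (3.49 ± 0.23, adjusted p = 3.4e-16). The gene called lower was Cebpb, a transcription factor that many cell types use (-0.64 ± 0.19, adjusted p = 0.009).

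Genes for ligands of the receptors among the 40 changed in part. Of 6 ligand genes, 4 rose in control: Ccl2 (4.93 ± 0.56, adjusted p = 1.1e-09) and Ccl7 (2.45 ± 0.60, adjusted p = 0.00148), which act on CCR2, Csf1 (1.75 ± 0.25, adjusted p = 5.1e-07), which acts on CSF1R, and the complement gene C3 (2.64 ± 0.27, adjusted p = 4e-10), the source of C3a. Cx3cl1 (-0.25 ± 0.36, adjusted p = 0.692), the ligand of CX3CR1, and Il34 (-0.14 ± 0.57, adjusted p = 0.906), the other ligand of CSF1R, were not called. With the TRF2 MuSC-cKO label none of the 5 tested was called by edgeR, and 3 had an unadjusted p below 0.05, while 3 of 6 were called without 3 DPI replicate 3. In uninjured muscle C3 was higher in TRF2 MuSC-cKO (1.37 ± 0.31, adjusted p = 0.00351).

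Markers of other blood cells held few counts in control. The 12 lymphocyte genes summed to 74.8 to 103 CPM in uninjured control and 64.6 to 115 CPM in control 3 DPI libraries, and none of the 4 tested was called by edgeR (1 had an unadjusted p below 0.05). Mast cell genes summed to 10.6 to 19.9 CPM in control 3 DPI libraries and could not be tested, and dendritic cell genes summed to 51.4 to 139 CPM before and 71.3 to 119 CPM after injury. Neutrophil genes summed to 52.8 to 82.4 CPM in uninjured control and 144 to 188 CPM in control 3 DPI libraries, and 1 of the 5 tested was called, Csf3r (2.22 ± 0.31, adjusted p = 1.6e-07), which macrophages also express. With the TRF2 MuSC-cKO label, neutrophil genes summed to 98.3 to 118 CPM in uninjured libraries, above the control range, and to 143 to 319 CPM at 3 DPI. Lymphocyte and mast cell genes reached 214 and 58.3 CPM in its 3 DPI replicate 3, the highest of the 16 libraries, and their part in the marker results was not tested.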

How the data were processed

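Libraries were prepared from total RNA of sorted cells with the CORALL Total RNA-Seq kit. Per the labels, reads were trimmed with Trim Galore 0.6.7, aligned with STAR 2.6.1d and quantified with Salmon 1.5.2 on GRCm38 (mm10), the versions being those of the submitters' processing notes. Whether molecular identifiers or strand were used in counting is not given in the sources used here. The authors deposited estimated counts per gene, unscaled and scaled for transcript length. The unscaled estimated counts were rounded for the tests. The scaled counts were used for TPM and as an alternative. Genes were assigned by symbol. The genes and lists were chosen with earlier results of these data known, and Adgre5 was given full statistics after its values were seen. The other genes with full statistics were defining markers and those of smallest p among the genes called. The receptor background, and the values without replicate 3 for the interaction, this background and the other lists, and the count of other myeloid genes passing the filter in uninjured libraries, were also chosen after the data were seen.

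Each comparison was fitted on its own 8 libraries, and the interaction on all 16, in edgeR 4.0.16 (R 4.3.3; quasi-likelihood test, robust, filterByExpr, TMM, Benjamini-Hochberg adjustment over all genes tested). Genes were called at an adjusted p below 0.02, the limit in the study's methods, and a fold above 1.5, which the study used to display changed genes; its own test was limma, kept here as an alternative. Standard errors are the log2 fold change over the square root of F. Alternatives were limma 3.58.1, DESeq2 1.42.0, other scalings, filters and thresholds, a replicate block, and leaving out each library. The procedure was tested on simulated counts. Libraries held 620506 to 1351130 estimated counts, so 3 counts correspond to a few CPM. No pair of replicates agreed within sampling noise. Genes were placed on GENCODE M21, where all 40 matched. Ly6c2 and Ms4a6d belong to families of similar genes among which Salmon divides reads. Olfactory and vomeronasal receptor genes numbered 1455.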

Additional observations from a re-analysis of the deposited data

Results flagged for a closer look

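Among 84 groups of 4 values tested for a library far from the other 3 of its group (Dixon's test at 95%, which chance alone passes in about 5% of groups), 5 were found. The monocyte markers summed to 29.9 CPM in control uninjured replicate 1 against 50 to 51.8 CPM in the other 3 libraries. They summed to 270 CPM in control 3 DPI replicate 1 against 345 to 358 CPM. Mrc1 was at 239 CPM in control 3 DPI replicate 4 against 191 to 198 CPM. Lgals3 was at 676 CPM in control 3 DPI replicate 1 against 1230 to 1290 CPM, and at 1310 CPM in replicate 1 labelled TRF2 MuSC-cKO 3 DPI against 698 to 802 CPM.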

How the results depend on the processing

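The count of members called was recomputed under 18 to 25 alternatives per comparison. In uninjured muscle it was 1 as reported, 2 in DESeq2, with scaling by library size alone, with at least 10 counts required in every library and at an adjusted p below 0.05 with no minimum fold, and 0 on the length-scaled table. limma also called 1, but this was Cd163 and not Adgre5. At 3 DPI it was 0 as reported and 1 in DESeq2. With at least 10 counts required in every library, 5 members could be tested for injury in control, of which 4 were called, and 7 with the TRF2 MuSC-cKO label, of which 5 were called, since fewer genes were left. Leaving out each library in turn gave 1 to 1 in uninjured muscle, 0 to 1 at 3 DPI, 38 to 39 for injury in control, 28 to 35 for injury with the TRF2 MuSC-cKO label and 0 to 0 for the interaction. The 1 at 3 DPI and the 35 came without replicate 3 labelled TRF2 MuSC-cKO 3 DPI.

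With a replicate block the counts were 1, 0, 38, 27 and 0, in the same order. The labels do not say that a number pairs libraries. Some same-numbered libraries share a description code, but replicates 1 and 2 at 3 DPI share the same one, and the correlation of deviations between same-numbered libraries ran from -0.11 to 0.111.

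For injury, the uninjured genotypes and the interaction, sign was followed only for named genes with an unadjusted p below 0.05, and none of these changed it. Cd163, outside that set, went from -0.002 to 0.24 for injury with the TRF2 MuSC-cKO label without replicate 3. At 3 DPI sign was followed in every setting for 25 tested genes, from the defining markers, those of smallest p and Adgre5. Of their 472 values, 25 changed sign. The other members were followed only for leaving out 1 library and within the shared description code. Trem2 was 0.041 in limma. With scaling by library size alone, Cd163 was 0.048, C3ar1 0.041 and Cybb 0.037. Leaving out 1 library gave ranges of -0.44 to 0.16 for Cd163, -0.53 to 0.23 for Trem2, -0.40 to 0.015 for Gpnmb, -0.35 to 0.19 for C3ar1, -0.58 to 0.12 for C1qc and -0.22 to 0.033 for Cybb. Among the other members the ranges of Clec4d (-0.97 to 0.082), Cd14 (-0.055 to 0.31), Cd53 (-0.22 to 0.19), Cd84 (-0.11 to 0.26) and Ncf1 (-0.12 to 0.28) also held both signs. Within the shared description code the values that changed sign were 0.069 for Cd68, 0.47 for Spi1, 0.33 for Cd163, 0.34 for Trem2, 0.31 for Spp1, 0.32 for Gpnmb, 0.12 for Lgals3, 0.12 for Mpeg1, 0.49 for C3ar1, 0.15 for C1qc, 0.051 for Fcer1g and 0.25 for Cybb. Among the other members Clec4d (0.43), Ctss (0.080), Lcp1 (0.061), Coro1a (0.056), Ms4a6d (0.030) and Aif1 (0.014) changed sign there too. The cause was not tested. None of these was called. Low uninjured counts limit the size of each fold, and 2 libraries per group limit the values within the code.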
